A study of Rattus norvegicus with 14 samples.

Results

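The rat major histocompatibility complex, called RT1, and the genes that cut, transport and load the peptides its proteins display were examined in the abdominal aorta during pregnancy. The 43 genes were taken from the 19357 genes of the deposited annotated table. They are the 33 genes with a symbol that starts with RT1- (26 of class I and 7 of class II) and 10 of 12 genes named for antigen processing, namely B2m, Tap1, Tapbp, Psmb8, Psmb9, Psmb10, Psme1, Cd74, Ciita and Nlrc5. Tap2, Psme2 and the class II genes RT1-DMa and RT1-DMb were not analysed here. RNA of the whole abdominal aorta was hybridized to Affymetrix arrays of the whole rat genome (1 per animal) in 14 female Wistar rats, an outbred strain. There were 4 non-pregnant rats (NPr), 5 healthy pregnant rats (Pr) and 5 rats with experimental preeclampsia (ExpPE). All rats carried a cannula in the jugular vein. ExpPE rats were infused with lipopolysaccharide (LPS, a part of the bacterial outer membrane) at a dose of 1 µg per kg, given as 2 ml during 1 h on day 14 of gestation, whereas Pr rats received the same volume of saline, and both were killed on day 20. NPr rats were age matched, received saline and were killed on diestrus, and their age in weeks is not given in the sources used here. Non-pregnant rats given LPS were not on the arrays.

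Class I proteins sit on nearly all nucleated cells and show peptides from inside the cell to CD8 T cells and natural killer cells. The proteasome subunits Psmb8, Psmb9 and Psmb10 and the activator subunit Psme1 help to cut these peptides, the transporter Tap1 moves them into the endoplasmic reticulum, Tapbp (tapasin) holds the class I chain next to the transporter, and B2m (beta 2 microglobulin) is its light chain. Class II proteins are found mainly on macrophages, dendritic cells and B cells, where Cd74, the invariant chain, guides them to the endosome. Nlrc5 and Ciita are the transactivators of class I and class II genes, and both branches are known to respond to interferon.

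One class I gene, RT1-S3, rose in both pregnant groups, by 1.55 in Pr and 1.44 in ExpPE rats on the log2 scale. The other 42 genes did not pass the adjusted threshold in either group, although most had a higher mean in pregnant than in NPr rats. The median difference from NPr rats was 0.59 in Pr and 0.25 in ExpPE rats for class II genes and 0.55 and 0.18 for processing genes, but between ExpPE and Pr rats no gene passed. Pr animal 3 was the highest of all animals in 9 of the 10 processing genes, and stood over 1 log2 unit above the next Pr animal in Tap1, Nlrc5, Psmb9 and Psmb10. RT1-Bb and RT1-CE5 were the 2 of the 43 genes among the 5% of all genes with the widest spread within groups.

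The deposited intensities had been normalized together by the authors, and their log2 is used here. Arrays had median log2 intensities of 5.58 to 5.67. The same intensities stand in another deposited table (to within 7.2e-10 in log2), and there all 10 arrays of Pr and ExpPE rats carry the title of the other group, while the 4 NPr arrays carry the same title in both. The groups here follow the column names of the annotated table, and the arrays' own names read the same way. Which labels are right for the animals cannot be told from the tables. With the titles followed, every value given for Pr rats belongs to ExpPE rats and the reverse, and the comparison of both pregnant groups together with NPr rats is the same under either labelling. Every comparison with NPr rats shares the same 4 NPr animals. The array names hold a code whose first letter was read here as an array row, which the labels do not state. By it the Pr arrays stand alone in 2 rows (D and E), NPr animals 1 to 3 in row A and ExpPE animals 3 to 5 in row C. Row B holds NPr animal 4 and ExpPE animals 1 and 2. For all arrays outside row B the row and the group cannot be told apart. Markers of smooth muscle (8 of 8 genes) and of endothelial cells (8 of 8) were above background in the aortas. Skeletal muscle fibre markers differed between animals, from a mean log2 intensity of 4.87 to 8.59 in NPr, 5.04 to 11.6 in Pr and 5.82 to 10.5 in ExpPE rats. All 7 adipocyte markers had a difference below 0 in both pregnant groups (medians of -0.41 in Pr and -0.40 in ExpPE rats), and all 7 erythroid markers a difference above 0 (0.23 and 1.39). The part of these tissues in the results was not tested. In whole tissue, fewer cells of a type and less RNA per cell cannot be told apart.

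Background was read from 1191 genes of odorant, taste and other sensory receptors, with a 95th percentile of 3.91 in log2 intensity. A mean above this level was found for 34 of the 43 genes, which include all 7 class II and all 10 processing genes. The 9 genes not above it were all of class I (RT1-CE1, RT1-M1-2, RT1-M1-4, RT1-M1-5, RT1-M10-1, RT1-M4, RT1-M5, RT1-O1 and RT1-S2), and the differences of these genes are at background. All 33 RT1 genes, Tap1, Tapbp, Psmb8 and Psmb9 lie on chromosome 20 by the deposited annotation. The class I genes are close copies of each other and differ between haplotypes. They were read by a median of 15.5 probes, against 26 over all genes, and 11 of the 26 by under 15 probes. Signal from a copy or from an allele that the probes match poorly therefore cannot be told apart from a change in the named gene.

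Promoter sequence from the RefSeq promoter table (build GRCr8) is shown for the gene that rose and for genes of class I loading, since class I genes are known to respond to interferon through elements with a pair of GAAA blocks and any 2 bases between them, a motif bound by interferon regulatory factors. The motif was searched on both strands of 300 bases (250 before and 50 after the start site) and was found in 8 of the 37 genes with an entry, or 21.6%, against 3.92% of all 33469 promoters of that length. These were 3 of 22 class I genes, 0 of 7 class II genes and 5 of 8 processing genes. Within the 250 bases before the start it was found in 7 of 37 (18.9%), against 3.41% of all promoters. A match is a description of the letters and not a measured site. Each line gives 100 bases of the gene's own strand, 5′ to 3′, with matches in capitals (on the other strand the blocks read TTTC). RT1-S3 is at chr20:2675371-2675470 on the plus strand, RT1-S2 at chr20:2654852-2654951 on the plus strand, RT1-A2 at chr20:4872771-4872870 on the plus strand, Tap1 at chr20:4668610-4668709 on the minus strand and Tapbp at chr20:4967878-4967977 on the minus strand. RT1-S3 is shown because it passed the test, and the other 4 were chosen after their values were seen.
RT1-S3: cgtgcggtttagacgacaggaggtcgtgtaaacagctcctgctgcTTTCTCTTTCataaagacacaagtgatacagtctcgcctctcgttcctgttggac
RT1-S2: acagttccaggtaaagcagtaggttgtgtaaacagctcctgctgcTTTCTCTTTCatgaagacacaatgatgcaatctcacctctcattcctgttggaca
RT1-A2: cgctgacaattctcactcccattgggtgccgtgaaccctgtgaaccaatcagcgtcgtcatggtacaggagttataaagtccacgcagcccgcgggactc
Tap1: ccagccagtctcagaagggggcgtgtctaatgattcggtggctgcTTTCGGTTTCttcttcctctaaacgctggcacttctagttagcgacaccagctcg
Tapbp: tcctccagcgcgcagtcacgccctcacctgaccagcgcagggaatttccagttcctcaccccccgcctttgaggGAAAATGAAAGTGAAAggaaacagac
The promoters of RT1-S3 and RT1-S2 share an unbroken stretch of 32 bases around the match, although RT1-S2, a neighbour of RT1-S3, was at background on the arrays. RT1-A2, a classical class I gene, had no match in the 300 bases. Tapbp had 2 overlapping matches next to the start site.

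RT1-S3, a nonclassical class I gene, had the clearest difference of all 43 genes. The log2 intensities of RT1-S3 were 7.07, 7.19, 7.42 and 7.40 in NPr animals 1 to 4, 8.69, 8.66, 9.54, 8.69 and 8.49 in Pr animals 1 to 5, and 8.21, 8.65, 8.85, 9.01 and 8.80 in ExpPE animals 1 to 5. Every pregnant animal lay above every NPr animal, and Pr animal 3 was the highest. In a limma fit over all 19357 genes RT1-S3 rose by 1.55 (SE 0.20, adjusted p = 0.00259) in Pr compared to NPr rats, a fold change of 2.92. In ExpPE compared to NPr rats it rose by 1.44 (SE 0.20, adjusted p = 0.00857), and this call was lost when NPr animal 1 or NPr animal 2 was left out (adjusted p = 0.0643 and 0.0568). With both pregnant groups together it rose by 1.49 (SE 0.18, adjusted p = 0.00117). Without Pr animal 3 the difference between Pr and NPr rats was 1.36 (adjusted p = 0.00188). In the 1 array row that holds animals of more than 1 group, NPr animal 4 read 7.40 and ExpPE animals 1 and 2 read 8.21 and 8.65. Between ExpPE and Pr rats RT1-S3 differed by -0.11 (SE 0.19, adjusted p = 0.847).

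**Figure D1:**
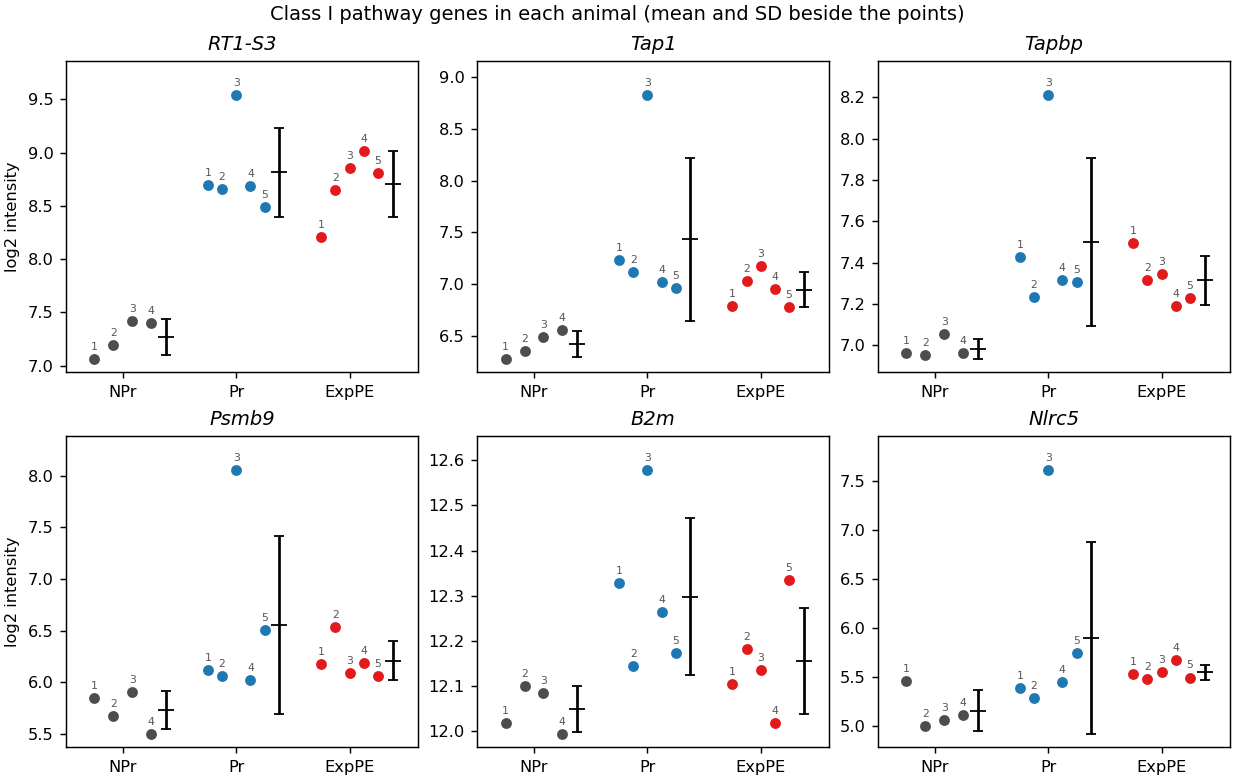
Log2 intensity (y axis, a scale of its own in each panel) of RT1-S3 and 5 genes of class I loading and control in each NPr, Pr and ExpPE rat (points, numbered by animal), with the mean and SD of the group beside the points. RT1-S3 lay at 7.07 to 7.42 in NPr rats and at 8.21 or above in all pregnant rats, and Pr animal 3 was the highest rat in all 6 panels.

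In Pr compared to NPr rats, 38 of the 43 genes had a difference above 0, which 45.4% of all genes had. The median difference of the 43 genes was 0.36, and that of all genes -0.02. RT1-S3 was the 1 gene of the 43 that rose, where 0.201% of all genes rose (0.212% changed in either direction). A looser limit, called the study threshold here, asks for a fold change above 1.4 and a p below 0.05 before adjustment. By it 14 of the 43 genes were higher and 0 were lower, against 2.43% and 0.982% of all genes. The 14 genes were 5 of class I, 3 of class II and 6 of processing. In 9 genes the Pr animals did not overlap with the NPr animals and lay above them, which held for 1.79% of all genes, and these were RT1-S3, RT1-Ba, RT1-Db1, RT1-DOa, B2m, Cd74, Psmb9, Tap1 and Tapbp. Without Pr animal 3 the study threshold was passed by 8 genes in place of 14. With arrays weighted by their quality 4 genes passed the adjusted p in place of 1, RT1-Ba, RT1-Db1 and Ciita besides RT1-S3. The share of all genes that passed with these weights is not given here, so the 4 cannot be set against it.

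In ExpPE compared to NPr rats 37 of the 43 genes had a difference above 0, against 53.1% of all genes, with a median of 0.25 against 0.02 over all genes. RT1-S3 was again the 1 gene that rose (0.093% of all genes rose, 0.0982% changed). At the study threshold 5 genes were higher, all of class I, and 0 were lower, where 1.98% of all genes were higher and 1.14% lower. Every ExpPE animal lay above every NPr animal in 7 genes, against 1.25% of all genes, namely RT1-S3, RT1-A1, RT1-M4, Nlrc5, Psmb9, Tap1 and Tapbp. RT1-M4 was at background. Without NPr animal 4 the study threshold was passed by 3 genes.

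When both pregnant groups together were compared to NPr rats, which does not depend on the labels in dispute, 39 of 43 genes had a difference above 0 (50.7% of all genes), and the median was 0.30. RT1-S3 rose (0.165% of all genes rose, 0.176% changed), 9 genes were higher and 0 lower at the study threshold (1.67% and 0.92% of all genes), and in RT1-S3, Tap1, Psmb9 and Tapbp every pregnant animal lay above every NPr animal (0.449% of all genes).

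**Figure D2:**
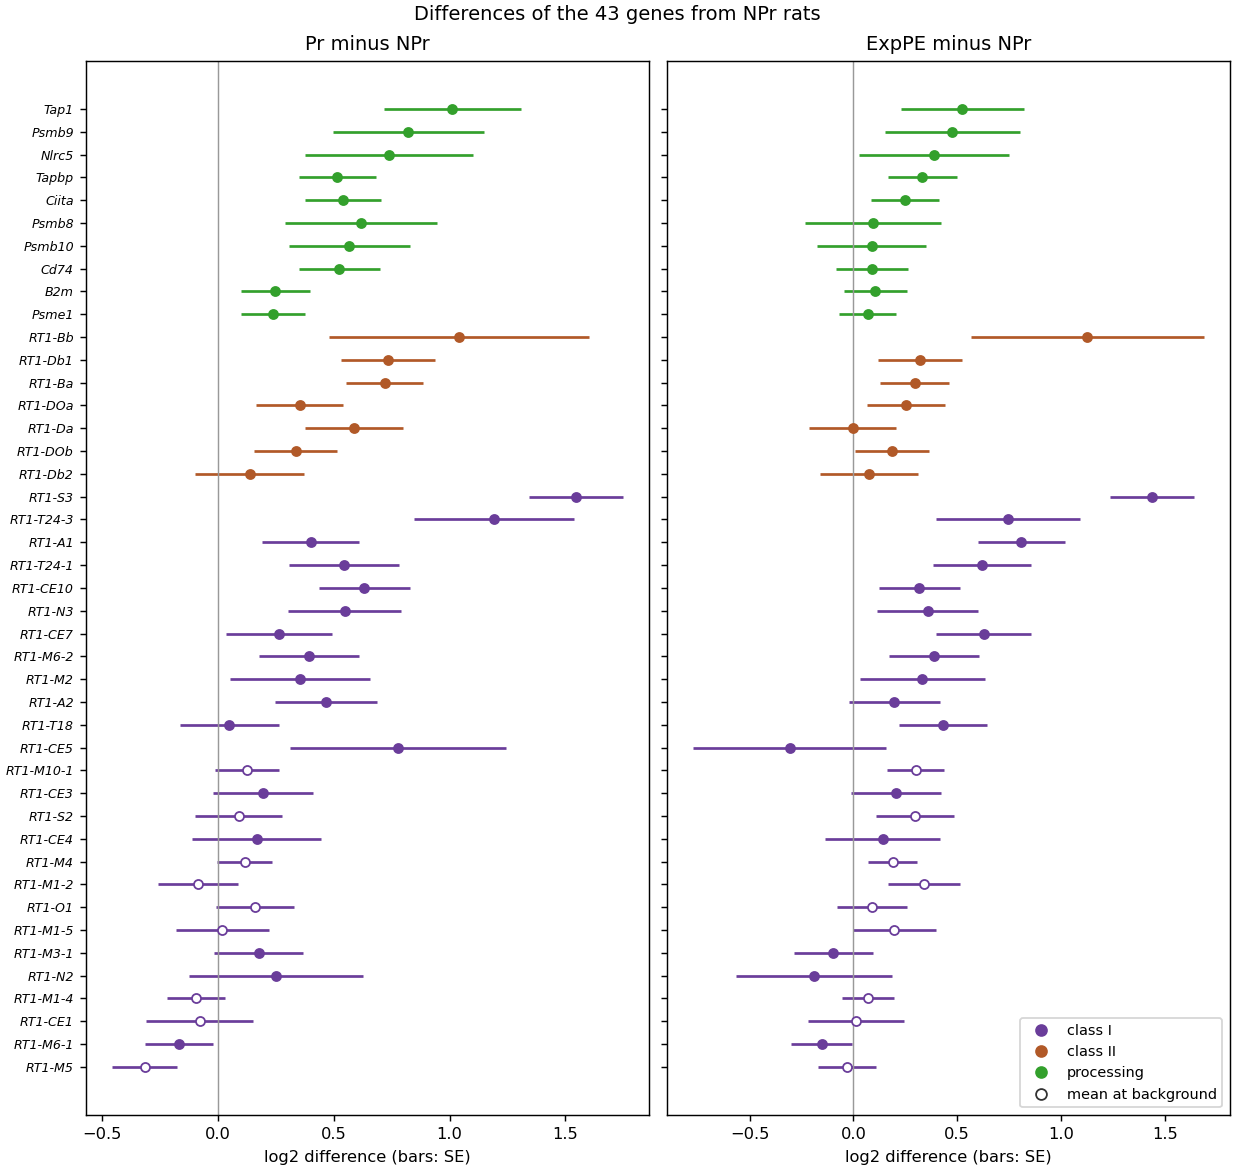
Log2 difference (x axis) of each of the 43 genes (y axis) between Pr and NPr rats on the left and between ExpPE and NPr rats on the right, with SE as bars, filled by class and drawn open where the mean was at background. RT1-S3 has the largest difference in both panels, at 1.55 and 1.44, although its SE bar overlaps with that of RT1-Bb. All 10 processing genes lie to the right of 0 in both panels.

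Among the 25 other class I genes, differences in Pr rats had a wide range, and the median over all 26 was 0.19 in Pr and 0.25 in ExpPE rats. Over the 17 class I genes above background the medians were 0.39 and 0.33. RT1-A1 and RT1-A2 belong to the classical class I locus. RT1-A1 had log2 intensities of 6.07, 5.43, 6.11 and 5.58 in NPr, 5.79, 6.36, 6.58, 6.06 and 6.18 in Pr and 6.23, 7.16, 6.51, 6.66 and 6.46 in ExpPE rats. All ExpPE animals lay above all NPr animals, while Pr and NPr animals overlapped. The difference of RT1-A1 was 0.40 (SE 0.21, adjusted p = 0.997) in Pr and 0.81 (SE 0.21, adjusted p = 0.462) in ExpPE rats. RT1-A2 had log2 intensities of 7.54, 8.0, 8.01 and 8.20 in NPr, 8.27, 8.49, 9.21, 8.15 and 7.91 in Pr and 8.10, 8.21, 7.84, 8.16 and 8.37 in ExpPE rats. The groups overlapped in RT1-A2, and its differences were 0.47 (SE 0.22) and 0.20 (SE 0.22).

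Besides RT1-S3, nonclassical class I genes that passed the study threshold in Pr compared to NPr rats were RT1-T24-3, RT1-T24-1, RT1-CE10 and RT1-N3. In ExpPE compared to NPr rats they were RT1-T24-3, RT1-T24-1 and RT1-CE7. For RT1-T24-3, read by only 4 probes, the log2 intensities were 4.77, 5.00, 6.0 and 5.42 in NPr, 6.83, 5.39, 6.65, 7.14 and 6.45 in Pr and 5.90, 6.36, 6.69, 5.42 and 5.84 in ExpPE rats. Of the Pr animals only animal 2 lay within the NPr range, and the difference was 1.19 (SE 0.35, adjusted p = 0.352) in Pr and 0.74 (SE 0.35, adjusted p = 0.64) in ExpPE rats. RT1-T24-1 read 6.23, 6.05, 6.21 and 5.85 in NPr, 6.42, 6.19, 7.37, 6.43 and 6.74 in Pr and 6.16, 7.22, 6.98, 6.55 and 6.60 in ExpPE rats. One Pr and one ExpPE animal of RT1-T24-1 lay within the NPr range, and the differences were 0.54 and 0.62 (SE 0.24 for both), with 0.36 in Pr rats when Pr animal 3 was left out. RT1-CE10 read 4.65, 5.02, 5.07 and 4.99 in NPr, 5.68, 5.36, 6.08, 5.00 and 5.72 in Pr and 4.94, 5.47, 5.16, 5.25 and 5.45 in ExpPE rats. In RT1-CE10 only Pr animal 4 and ExpPE animal 1 were within the NPr range, with differences of 0.63 (SE 0.20, adjusted p = 0.43) and 0.32 (SE 0.20, adjusted p = 0.652).

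RT1-N3 read 4.91, 5.59, 5.40 and 5.52 in NPr, 6.19, 5.46, 6.43, 6.04 and 5.40 in Pr and 5.08, 5.99, 5.69, 5.92 and 5.88 in ExpPE rats. Groups overlapped, and the difference was 0.55 (SE 0.24, adjusted p = 0.896) in Pr and 0.36 (SE 0.24) in ExpPE rats. RT1-CE7 read 7.20, 6.74, 7.57 and 7.16 in NPr, 6.92, 7.68, 8.0, 7.03 and 7.52 in Pr and 7.74, 8.22, 7.43, 7.95 and 7.63 in ExpPE rats. The highest value of RT1-CE7 was in ExpPE animal 2, and NPr animal 3 lay above ExpPE animal 3. The difference of RT1-CE7 was 0.27 (SE 0.23) in Pr and 0.63 (SE 0.23, adjusted p = 0.64) in ExpPE rats. The 9 class I genes at background differed by -0.32 to 0.16 in Pr rats.

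Of the 10 processing genes 6 were higher in Pr than in NPr rats at the study threshold (2.43% of all genes), and none passed the adjusted p. Tap1 read 6.28, 6.36, 6.49 and 6.56 in NPr, 7.23, 7.12, 8.83, 7.02 and 6.96 in Pr and 6.79, 7.03, 7.18, 6.95 and 6.78 in ExpPE rats. Both pregnant groups lay wholly above the NPr animals. The difference of Tap1 was 1.01 (SE 0.30, adjusted p = 0.36) in Pr and 0.52 (SE 0.30, adjusted p = 0.64) in ExpPE rats, with 0.77 (SE 0.26, adjusted p = 0.642) for both together. Without Pr animal 3, which widens the spread within its group, the difference in Pr rats was 0.66 (adjusted p = 0.0558), and that of both pregnant groups was 0.59 and passed the threshold (adjusted p = 0.0335). Tapbp read 6.96, 6.95, 7.06 and 6.96 in NPr, 7.43, 7.23, 8.21, 7.32 and 7.30 in Pr and 7.49, 7.32, 7.35, 7.19 and 7.23 in ExpPE rats. As in Tap1, no pregnant animal reached down to the NPr animals. The difference of Tapbp was 0.52 (SE 0.17, adjusted p = 0.472) in Pr rats, 0.34 without Pr animal 3, and 0.33 (SE 0.17, adjusted p = 0.64) in ExpPE rats.

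The immunoproteasome subunits, which replace the constitutive catalytic subunits after exposure to interferon, showed the same high animal. Psmb9 read 5.85, 5.67, 5.91 and 5.50 in NPr, 6.12, 6.06, 8.06, 6.02 and 6.51 in Pr and 6.17, 6.54, 6.09, 6.19 and 6.06 in ExpPE rats. The NPr animals were below all others in Psmb9, and 4 of the 5 Pr animals lay between 6.02 and 6.51. The difference of Psmb9 was 0.82 (SE 0.33, adjusted p = 0.776) in Pr rats, 0.45 without Pr animal 3, and 0.48 (SE 0.33) in ExpPE rats. Psmb10 read 6.71, 6.87, 6.98 and 7.02 in NPr, 7.33, 7.14, 8.65, 7.20 and 6.99 in Pr and 6.65, 7.17, 6.96, 7.07 and 7.05 in ExpPE rats. Apart from Pr animal 3 the levels of Psmb10 lay close together, and the difference in Pr rats was 0.57 (SE 0.26, adjusted p = 0.926), or 0.27 without that animal. Psmb8 read 6.50, 7.12, 6.76 and 7.26 in NPr, 8.13, 7.07, 8.38, 7.64 and 6.40 in Pr and 6.93, 7.40, 6.61, 6.98 and 7.10 in ExpPE rats. Pr animals held both the highest and the lowest value of Psmb8, and its difference was 0.62 (SE 0.33) in Pr and 0.10 (SE 0.33) in ExpPE rats.

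B2m, the light chain of all class I molecules, differed little. Its log2 intensities were 12.02, 12.10, 12.09 and 11.99 in NPr, 12.33, 12.15, 12.58, 12.26 and 12.17 in Pr and 12.11, 12.18, 12.14, 12.02 and 12.34 in ExpPE rats. All Pr animals lay above all NPr animals, by a difference of 0.25 (SE 0.15, adjusted p = 1), while ExpPE animals overlapped with NPr animals (0.11, SE 0.15). Psme1 read 9.42, 9.43, 9.60 and 9.44 in NPr, 9.69, 9.47, 10.18, 9.57 and 9.65 in Pr and 9.39, 9.69, 9.42, 9.66 and 9.55 in ExpPE rats. The groups overlapped in Psme1 (0.24 in Pr and 0.07 in ExpPE rats, SE 0.14 for both). Nlrc5 read 5.46, 4.99, 5.06 and 5.11 in NPr, 5.38, 5.28, 7.61, 5.44 and 5.74 in Pr and 5.53, 5.47, 5.55, 5.67 and 5.49 in ExpPE rats. ExpPE animals lay just above the highest NPr animal in Nlrc5, and 1 Pr animal stood 1.87 above the next Pr animal. The difference of Nlrc5 was 0.74 (SE 0.36, adjusted p = 0.946) in Pr and 0.39 (SE 0.36) in ExpPE rats.

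Pr animal 3 was the highest of the 14 animals in 9 of the 10 processing genes, in 9 of 26 class I genes and in 2 of 7 class II genes, and it was the highest in 8.04% of all genes. Relative to the other Pr animals its median deviation was 0.97 in processing genes, 0.32 in class I genes, 0.28 in class II genes and -0.02 in all genes. In the same animal Irf1, a transcription factor that acts after interferon gamma, read 9.17, where the other Pr animals read 6.81 to 7.24. Its mean level of macrophage markers was also the highest of all animals (9.11). The part of these values in the levels of the processing genes was not tested. High class I and class II levels were not particular to Pr animal 3. ExpPE animal 2 was the highest in 9 of 26 class I and 1 of 7 class II genes, and in 17.8% of all genes. Relative to the other ExpPE animals its median deviation was 0.27 in class I, 0.54 in class II, 0.19 in processing and 0.08 in all genes.

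All 7 class II genes had a difference above 0 in Pr compared to NPr rats, with a median of 0.59. At the study threshold 3 of the 7 were higher (2.43% of all genes). None passed the adjusted p. The median in ExpPE compared to NPr rats was 0.25, and 0 of the 7 were higher at the study threshold (1.98% of all genes). RT1-Ba, the alpha chain of the B molecule, read 6.49, 6.52, 6.94 and 6.81 in NPr, 7.39, 7.64, 7.67, 6.96 and 7.39 in Pr and 6.71, 7.35, 6.98, 7.01 and 6.87 in ExpPE rats. In RT1-Ba the Pr animals lay above all NPr animals, although Pr animal 4 did so by a narrow margin. Its difference was 0.72 (SE 0.17, adjusted p = 0.155) in Pr and 0.29 (SE 0.17, adjusted p = 0.64) in ExpPE rats. RT1-Db1, a beta chain of the D molecule, read 5.86, 6.01, 6.27 and 6.0 in NPr, 6.77, 6.89, 7.07, 6.73 and 6.39 in Pr and 5.87, 7.06, 6.46, 6.2 and 6.19 in ExpPE rats. NPr and Pr animals did not overlap in RT1-Db1, and ExpPE animals 1 and 2 marked the ends of a range nearly as wide as both groups together. The difference of RT1-Db1 was 0.73 (SE 0.20, adjusted p = 0.302) in Pr and 0.32 (SE 0.20) in ExpPE rats.

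RT1-Da, the alpha chain of the D molecule, read 8.32, 8.73, 8.74 and 8.65 in NPr, 9.55, 9.08, 9.46, 9.28 and 8.62 in Pr and 8.07, 9.13, 8.67, 8.49 and 8.68 in ExpPE rats. Pr animal 5 was within the NPr range of RT1-Da and the other Pr animals above it, with a difference of 0.59 (SE 0.21, adjusted p = 0.625). RT1-DOa, a chain of the DO molecule that tunes peptide loading, read 4.60, 4.63, 4.60 and 4.46 in NPr, 5.00, 4.81, 4.76, 4.74 and 5.31 in Pr and 4.49, 5.37, 4.40, 4.97 and 4.88 in ExpPE rats. Here the Pr animals again lay above the NPr animals, and ExpPE animals on both sides of them (0.35 in Pr and 0.25 in ExpPE rats, SE 0.19 for both). RT1-DOb and RT1-Db2 had differences of 0.34 (SE 0.18) and 0.14 (SE 0.24) in Pr rats.

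Cd74 read 10.71, 11.05, 11.26 and 11.09 in NPr, 11.53, 11.56, 11.76, 11.45 and 11.45 in Pr and 10.70, 11.56, 11.20, 11.03 and 11.09 in ExpPE rats. The Pr animals lay close together and above all NPr animals, while 4 of the 5 ExpPE animals lay within or just below the NPr range and ExpPE animal 2 at the level of Pr rats. The difference of Cd74 was 0.53 (SE 0.17, adjusted p = 0.5) in Pr and 0.09 (SE 0.17, adjusted p = 0.865) in ExpPE rats. Ciita, the factor that switches on class II genes, read 5.43, 5.12, 5.10 and 5.05 in NPr, 5.40, 5.82, 5.70, 5.80 and 5.85 in Pr and 5.04, 5.74, 5.17, 5.70 and 5.46 in ExpPE rats. One Pr animal lay within the NPr range of Ciita, and the difference was 0.54 (SE 0.16, adjusted p = 0.413) in Pr and 0.25 (SE 0.16) in ExpPE rats.

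**Figure D3:**
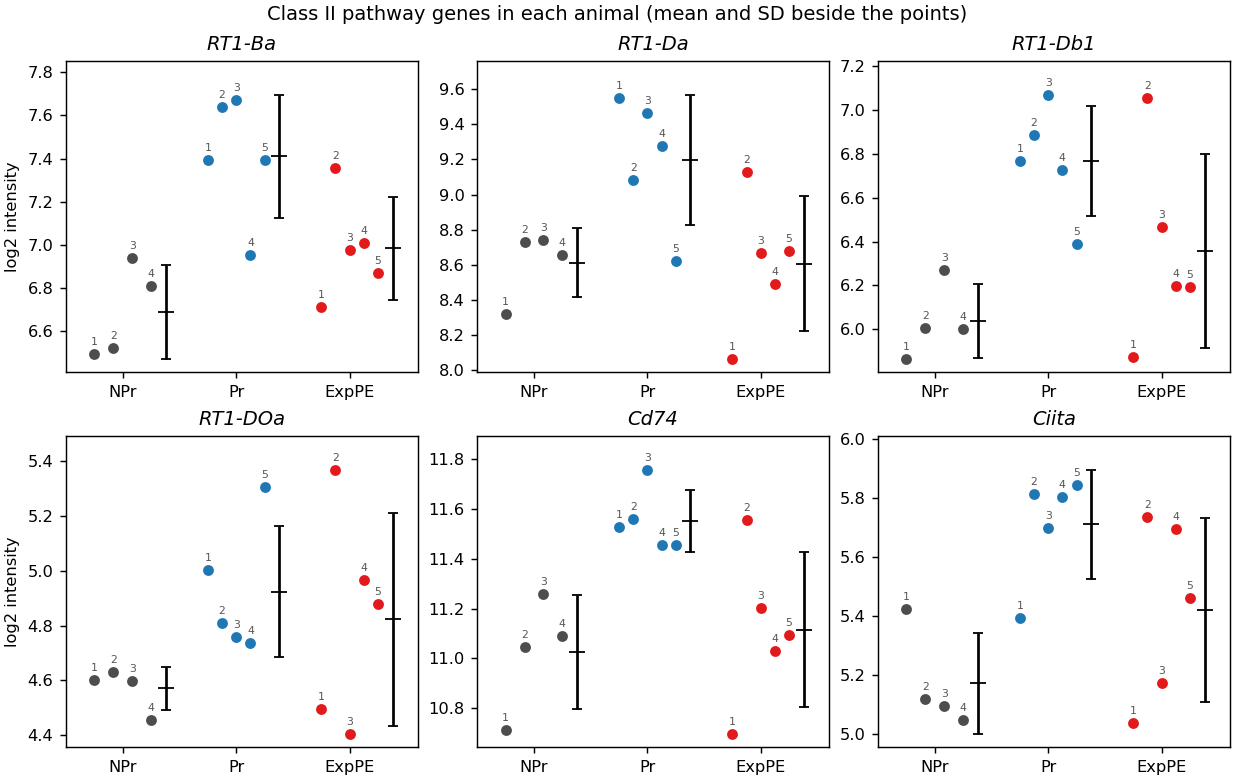
Log2 intensity (y axis, a scale of its own in each panel) of 4 class II genes, Cd74 and Ciita in each NPr, Pr and ExpPE rat (points, numbered by animal), with the mean and SD of the group beside the points. The Pr animals of Cd74 lay at 11.45 to 11.76, above all NPr animals, and ExpPE animals 1 and 2 lay at the lower and the upper end of the ExpPE group in RT1-Da, RT1-Db1 and Cd74.

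Between ExpPE and Pr rats no gene of the 43 passed the adjusted p, and the levels in ExpPE rats tended to the lower side in processing genes. In limma 0 of 19357 genes passed (0% of all genes), while 1642 genes (8.48%), 6 of the 43 among them, had an unadjusted p under 0.05. All 10 processing genes had a difference below 0, and 15 of the 43 genes lay above 0, against 53.6% of all genes. The lower side was not particular to the processing genes. Of 56 further genes of the same pathways (described below) 7 lay above 0, with a median of -0.21. All 15 constitutive proteasome genes among them lay below 0 (median -0.20). All 9 macrophage and all 8 smooth muscle markers lay below 0 as well, while all 10 skeletal fibre and all 7 erythroid markers lay above 0. The processing genes had a median of -0.35, and the median was -0.15 in class II genes, 0.01 in class I genes and 0.02 in all genes. Without Pr animal 3 the processing median was -0.11, and without Pr animal 5 the class II median was -0.02. The smallest adjusted p in this comparison, 0.574, was that of many genes, among them Cd74 (-0.43, SE 0.16), RT1-Ba (-0.43, SE 0.16), RT1-Db1 (-0.41, SE 0.19), RT1-Da and RT1-CE5. At the study threshold 2 genes were lower in ExpPE rats, where 1% of all genes were lower, and 0 were higher, against 1.72%. These were RT1-Da, with -0.59 (SE 0.20), and RT1-CE5, with -1.09 (SE 0.44), and in 0 of the 43 genes were the groups apart, against 0.506% of all genes that lay wholly lower. This count ranged from 1, without Pr animal 1 or without ExpPE animal 4, to 5, without Pr animal 5 or without ExpPE animal 2, and was 4 without Pr animal 4. By the titles of the second table both differences turn to the opposite sign. In RT1-CE5, ExpPE animals 1 and 4 (3.75 and 3.25) read below background, so its difference rests in part on values at that level.

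RT1-Bb, RT1-CE5 and RT1-N2 had the widest spread between animals of a group among the 43 genes. As a whole the 43 genes did not stand out by their spread, since 2 of them were among the widest 5% of all genes and 0 among the widest 1%. RT1-Bb, the beta chain that pairs with RT1-Ba, read 7.23, 6.08, 7.70 and 5.80 in NPr, 6.44, 8.99, 8.21, 6.56 and 8.53 in Pr and 8.02, 6.69, 8.53, 8.26 and 7.65 in ExpPE rats. Low values from 5.80 to 6.69 occurred in all 3 groups (NPr animals 2 and 4, Pr animals 1 and 4, ExpPE animal 2), and the other 9 animals read 7.23 to 8.99. The SD of RT1-Bb within groups was 0.95, against a median of 0.26 over all genes, and 98.57% of all genes varied no more. Its difference was 1.04 (SE 0.56) in Pr and 1.13 (SE 0.56) in ExpPE rats (adjusted p = 1 and 0.64). RT1-Ba, whose protein is the partner of RT1-Bb, had an SD of 0.25.

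RT1-CE5, a nonclassical class I gene, read 4.85, 4.91, 3.83 and 4.82 in NPr, 5.79, 4.09, 6.44, 5.52 and 5.08 in Pr and 3.75, 5.23, 4.20, 3.25 and 5.06 in ExpPE rats. ExpPE animals 1 and 4, Pr animal 2, NPr animal 3 and ExpPE animal 3 were the lowest. Of these, ExpPE animals 1 and 4 and NPr animal 3 read below the background level of 3.91. The SD of RT1-CE5 within groups was 0.78 and that of RT1-N2 0.63. RT1-N2 read 6.39, 6.70, 6.68 and 6.77 in NPr, 7.27, 5.89, 7.22, 7.25 and 6.79 in Pr and 5.78, 7.34, 6.56, 5.39 and 7.16 in ExpPE rats. The 3 animals with the lowest RT1-N2, namely ExpPE animals 4 and 1 and Pr animal 2, were also among the 4 lowest in RT1-CE5 and read 8.26, 8.02 and 8.99 in RT1-Bb. The RT1 haplotypes of these outbred rats are not given, and an allele that the probes match poorly cannot be told apart from a lower amount of RNA.

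**Figure D4:**
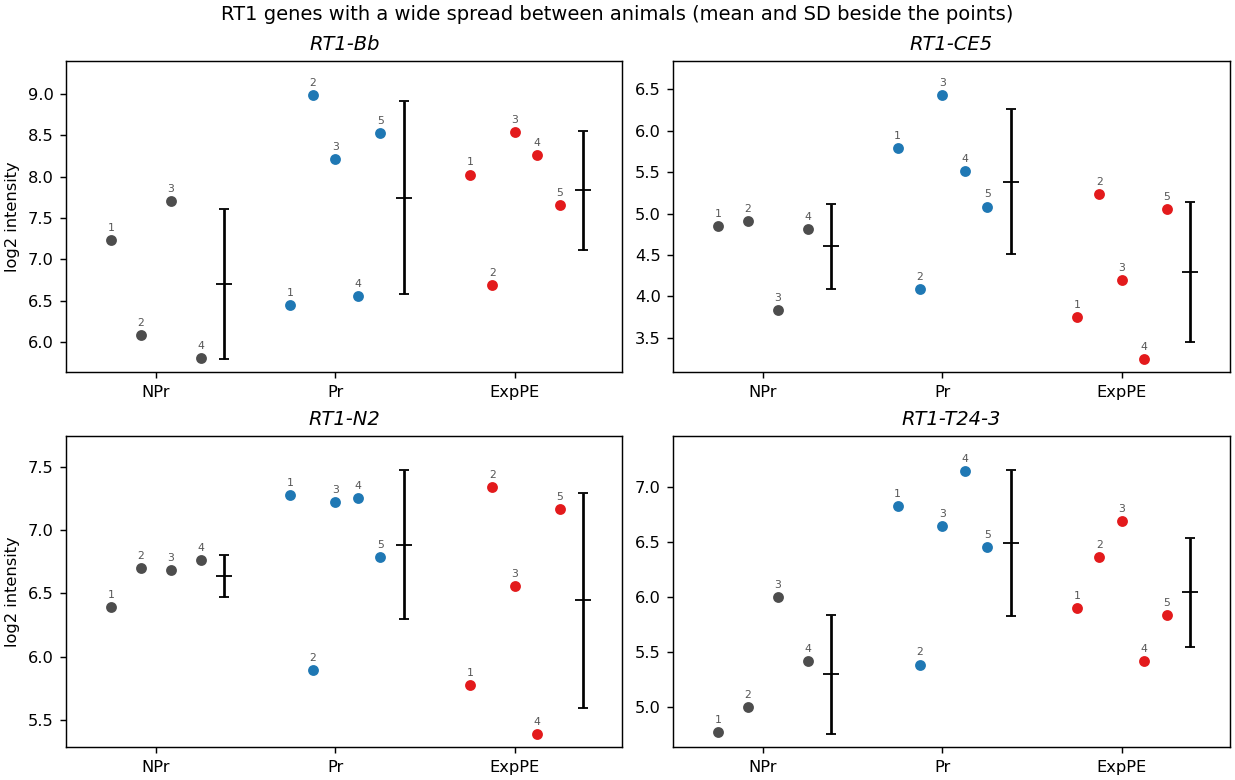
Log2 intensity (y axis, a scale of its own in each panel) of RT1-Bb, RT1-CE5, RT1-N2 and RT1-T24-3 in each NPr, Pr and ExpPE rat (points, numbered by animal), with the mean and SD of the group beside the points. Values of RT1-Bb ran from 5.80 to 8.99, and each of the 3 groups holds animals with low and with high values.

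All 9 macrophage markers found were above background and had a difference above 0 in both pregnant groups, and their mean log2 level was 7.60 to 7.83 in NPr, 8.21 to 9.11 in Pr and 7.69 to 8.55 in ExpPE rats. No Pr animal overlapped with NPr animals in this mean. Siglec1, a sialic acid receptor of macrophages, rose by 1.93 (adjusted p = 0.000457) in Pr and 1.55 (adjusted p = 0.00566) in ExpPE rats in limma. It was the only 1 of the 9 markers that passed the adjusted p in either comparison. The mean of 10 dendritic cell markers, 9 of them above background, ranged from 4.99 to 5.30 in NPr, 5.35 to 5.57 in Pr and 4.97 to 5.64 in ExpPE rats. Of 7 B cell markers found 4 were above background, and their mean ranged from 4.05 to 4.60 in NPr, 4.02 to 6.05 in Pr and 3.86 to 4.50 in ExpPE rats, with Pr animal 5 the highest. The part of these cell types in the differences of the class II genes was not tested.

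Across the 14 animals, with group means removed, 8 relations between single genes were computed, with p-values from 100000 permutations within groups. Cd74 went with Csf1r, the receptor for the growth factor of macrophages (Pearson's r = 0.853, permutation p = 1e-05, which is the smallest the permutations can give, adjusted p = 8e-05, Spearman's rho = 0.83, adjusted permutation p = 0.00216). Without ExpPE animals 1 and 2, the farthest in Cd74, r was 0.715. Cd74 also went with RT1-Da (r = 0.793, adjusted permutation p = 0.0108, rho = 0.692, adjusted permutation p = 0.0368), with r = 0.581 without the same 2 animals. The adjusted threshold was not passed by Cd74 with Ciita (r = 0.215, adjusted permutation p = 0.602, and r = -0.578 without the same 2 animals), with the dendritic cell gene Flt3 (r = 0.388, adjusted permutation p = 0.299, and r = 0.166 without them) or with the B cell gene Cd79b (r = -0.149, adjusted permutation p = 0.602, and r = -0.542 without these animals). For Tap1, r was 0.892 with Irf1 (adjusted permutation p = 0.0758) and 0.885 with Psmb9 (adjusted permutation p = 0.27), and these values rested on Pr animal 3, since r was 0.393 and -0.151 without it. For B2m and Nlrc5 r was 0.645 (adjusted permutation p = 0.294), or -0.364 without Pr animal 3.

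**Figure D5:**
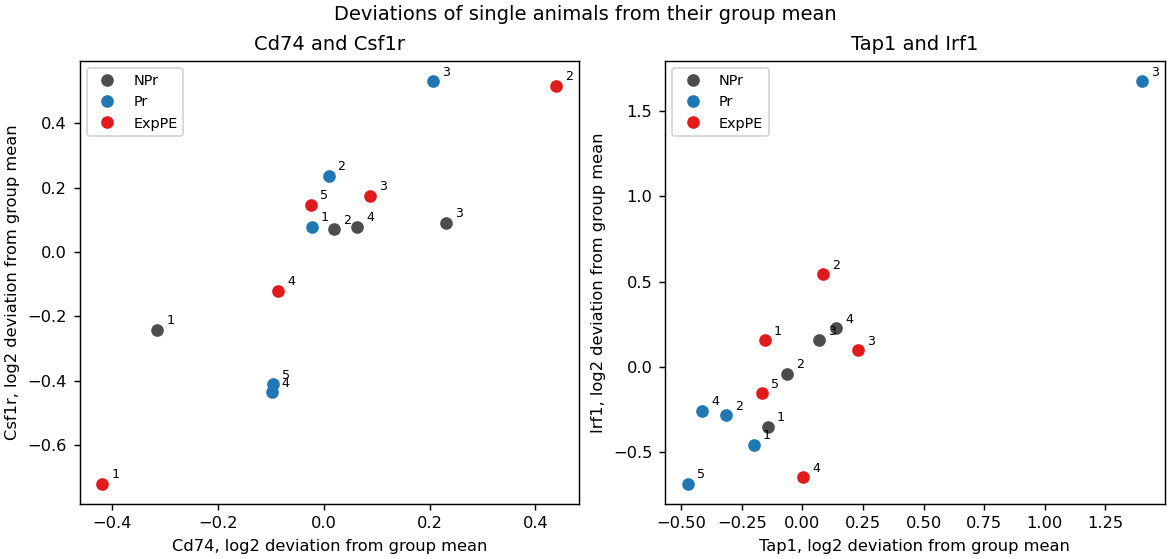
Deviation of each animal from its group mean in log2 intensity (points, coloured by group and numbered by animal), with Cd74 (x axis) against Csf1r (y axis) on the left and Tap1 (x axis) against Irf1 (y axis) on the right. The points on the left follow a line (r = 0.853), and on the right Pr animal 3 lies far from the other 13 animals.

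Of 56 further genes of the same pathways (loading chaperones, constitutive proteasome, endosomal route of class II, transcription of these genes, class I relatives outside RT1 and costimulation) 0 passed the adjusted p of limma in any of the 4 comparisons. At an unadjusted p under 0.05 there were 13 in Pr compared to NPr rats (5.35% of all genes), 6 in ExpPE compared to NPr rats (7.61% of all genes), 15 between ExpPE and Pr rats (8.48% of all genes) and 7 for both pregnant groups (5.54% of all genes). In Pr compared to NPr rats 43 of the 56 had a difference above 0 (45.4% of all genes), and 7 were higher and 0 lower at the study threshold (2.43% and 0.982% of all genes). Of these 7, 6 were Fcgrt, the neonatal receptor for immunoglobulin G (0.52, adjusted p = 0.219), Ifi30, a thiol reductase of the endosome (0.65, adjusted p = 0.284), Irf8, a transcription factor of myeloid cells (0.66, adjusted p = 0.302), the costimulatory ligand Cd80 (0.78, adjusted p = 0.306), and the endosomal proteases Lgmn (0.56) and Ctss (0.73). The 15 constitutive proteasome genes had a median difference of 0.01 in Pr rats and of -0.16 in ExpPE rats, where all 15 lay below 0, and the 6 loading chaperones had medians of 0.13 and -0.07. In ExpPE compared to NPr rats 0 of the 56 genes passed the study threshold in either direction (1.98% of all genes were higher and 1.14% lower). Between ExpPE and Pr rats 2 of the 56 were lower at that threshold (1% of all genes), Cd80 (-0.69, SE 0.21) and March1, a ubiquitin ligase that removes class II molecules from the surface (-0.53, SE 0.14), both with an adjusted p of 0.574.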

How the data were processed

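RNA of 14 aortas was measured on Affymetrix Rat Gene 1.1 ST arrays. For the deposited intensity values the authors used robust multichip average (RMA), quantile normalization included, in MADMAX, after probes had been regrouped by gene in a custom annotation. Versions are not given in the sources used here. The intensities are linear, and their log2 was computed here. The authors' comparison columns (fold changes, p-values) were not used. All 19357 genes entered 1 fit with limma 3.58.1 in R 4.3.3 (a mean per group, prior variance following the mean, no filter), with Benjamini-Hochberg adjustment over all of them. Genes were said to rise or fall at an adjusted p under 0.05. The study threshold was the one in the methods, a fold change above 1.4 and a p below 0.05 before adjustment. The labels do not say that animals came from separate litters, and precision is limited by how few arrays there were.

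The genes and lists were chosen with earlier results of these data known, and nothing that those results already showed is independent support. Named with values in every animal were genes past either threshold, up to 12 by smallest p per comparison, and a fixed set of processing and RT1 genes. RT1-N2, RT1-DOa, RT1-DOb, RT1-Db2 and RT1-M4 were named after their values were seen. Class I comprised all RT1 genes except the B, D and H series. Members were counted, relations computed and promoters searched in Python 3.11.15 (numpy 2.4.6, scipy 1.17.1, pandas 2.3.3), and figures drawn with matplotlib 3.10.9. One gene of the pathway lists is counted but not reported by name here. The fit was tested on simulated data. Alternatives were other prior variances, only the groups compared, array weights, genes above the median, centring, repeated quantile normalization, the titles of the second table, the replicate block, the array row as a block and each animal left out.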

Additional observations from a re-analysis of the deposited data

Results flagged for a closer look

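In 11 of 129 groups of animals (3 groups for each of the 43 genes) the highest or lowest animal stood apart from the others by Dixon's test at its 95% critical value, where chance gives about 1 in 20. Pr animal 3 stood apart at the upper end in RT1-S3 (9.54), Tap1 (8.83), Nlrc5 (7.61), Tapbp (8.21), Psmb9 (8.06) and Psmb10 (8.65). NPr animal 3 stood apart at the upper end in Tapbp (7.06, next 6.96) and Psme1 (9.60, next 9.44) and at the lower end in RT1-CE5 (3.83, next 4.82). The gaps in Tapbp and Psme1 were small, and were flagged because the other NPr animals lay close together. ExpPE animal 2 stood apart at the upper end in Psmb9 (6.54) and in RT1-O1 (4.08), a gene at background. These genes are not independent, since 6 of the 11 values come from the same animal. The share of groups flagged in this way over all genes is not given here. ExpPE animal 2 was also the highest of the 14 animals in 17.8% of all genes.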

How the results depend on the processing

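The rise of RT1-S3 in Pr rats and in both pregnant groups together kept its direction and its call under every alternative run, and that in ExpPE rats lost its call only without NPr animal 1 or 2. With arrays weighted by quality, genes past the adjusted p numbered 4 in Pr compared to NPr rats and 2 (RT1-S3 and RT1-A1) for both pregnant groups together. Shares of all genes with these weights are not given here. Among genes above the median intensity the class I median was 0.40 in Pr and 0.45 in both pregnant groups, the class II median 0.52 in both pregnant groups and -0.42 between ExpPE and Pr rats, and the count at the study threshold between ExpPE and Pr rats 1. These medians and this count cover only the genes of each set that lie above the median intensity, and so not the same genes as the main values.

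With groups from the sample titles, which exchanges Pr and ExpPE, Pr compared to NPr rats gave 5 genes at the study threshold, medians of 0.25 (class II) and 0.18 (processing) and a difference of RT1-Da of -0.004, and ExpPE compared to NPr rats gave 14 genes, 0.59 and 0.55. Between ExpPE and Pr rats the medians became 0.15 and 0.35 and the differences 0.59 (RT1-Da) and 1.09 (RT1-CE5). The titles also carry a replicate number, used only in the check of pairs that follows and in the replicate block. The column names carry none, so elsewhere animals are numbered by the order of the columns within each group. Of 13 pairs with the same title number in 2 groups, 7 correlated over 0.1 (r from -0.40 to 0.40). The median r was 0.10 for these pairs and -0.02 for pairs with unlike numbers, and 1 animal correlated best with its own number. With so few pairs, whether the animals were paired cannot be told from these values. The authors' methods call their statistic paired without naming what was paired, and the main fit here has no pairs. The replicate block on the titles gave 6 genes, 0.20 and 0.23 in Pr compared to NPr rats, 14 genes, 0.65 and 0.58 in ExpPE compared to NPr rats, and 1 gene, 0.15 and 0.35 between ExpPE and Pr rats, where RT1-Da and RT1-CE5 again differed by 0.59 and 1.09.

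Leaving out 1 animal at a time, the genes past the adjusted p numbered 1 to 1 in Pr compared to NPr, 0 to 1 in ExpPE compared to NPr, 0 to 0 in ExpPE compared to Pr rats and 1 to 2 in both pregnant groups compared to NPr rats. The counts at the study threshold ranged from 8 to 16, 3 to 7, 1 to 5 and 6 to 11 in the same order. The class I medians ranged from 0.13 to 0.24, 0.20 to 0.32, -0.04 to 0.09 and 0.17 to 0.25, the class II medians from 0.49 to 0.72, 0.15 to 0.33, -0.24 to -0.02 and 0.24 to 0.36, and the processing medians from 0.37 to 0.63, 0.13 to 0.25, -0.46 to -0.11 and 0.31 to 0.42. In an alternative chosen after seeing the data, without Pr animal 3 and ExpPE animals 1 and 2, 2 genes passed the adjusted p and 8 the study threshold in Pr compared to NPr rats, and 2 passed the adjusted p in both pregnant groups. The second gene was Tap1 (adjusted p = 0.0498 and 0.0374). The cause of these shifts was not tested.

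Arrays give only 4 or 5 animals per group, probe sharing between close RT1 copies was not tested, and 9 class I genes lay at background.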

Other observations

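Another 6 genes with a class I description carry LOC names and so lie outside the RT1 symbols. All 6 had a difference above 0 in Pr compared to NPr rats (median 0.81), where 45.4% of all genes had one, 4 were higher at the study threshold (2.43% of all genes) and 0 passed the adjusted p (smallest adjusted p in limma 0.205, LOC100364500, with a difference of 0.68). In ExpPE compared to NPr rats the median was 0.48, and 1 gene was higher at the study threshold (1.98% of all genes), LOC100909797, which is read by 3 probes (1.37). LOC102546968 is read by 5 probes, and LOC103694386 and LOC102546590 by 4 each. No animal read above 3.45 in LOC102546590, below the background level of 3.91. In LOC103694386 the NPr animals read 2.50 to 3.79, also below it. The differences of LOC103694386 and LOC102546590 are therefore at or near background. LOC103690108 read 3.58 in NPr animal 2, 4.39 in Pr animal 1 and 3.31 in Pr animal 4, and 5.27 to 6.50 in the other 11 animals. These genes were chosen after their values were seen.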
